A study of Mus musculus with 4 samples.

Results

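Mesothelin (Msln), uroplakin 1b (Upk1b), uroplakin 3b (Upk3b) and megalin (Lrp2) are genes for surface proteins of mesothelium and other epithelia, and they were followed here in cultured mouse aortic endothelial cells. They were chosen by gene symbol from the authors' deposited table of genes that differ between genotypes. All 4 symbols were found, each as 1 probe set, among 398 probe sets of that table. The value table holds 35557 transcript clusters (sets of probes read as a single value). No array annotation was used, so what the 6636 clusters numbered below the first one named in the authors' table measure was not checked. They are included in counts over all clusters unless stated. Because the authors' table was made by comparing the genotypes on these same arrays, the genotype differences of the 4 genes are given as a description and were not tested.

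The tested cells, called hcatTg, overexpress human catalase, the enzyme that breaks down hydrogen peroxide, and the control cells are wild type, each with 2 RNA samples on 2 Affymetrix Mouse Gene 1.0 ST arrays. Both kinds of cell are given as C57BL/6J, and all were rested in serum-free medium for 12 h at 80% confluence and then kept in 10% fetal bovine serum for 12 h. The labels do not state the promoter that drives the transgene, the age or sex of the mice, or whether the samples of a genotype are from different animals. The authors' table sets the first array of each genotype against the other as a first time and the second arrays as a second time, and the labels do not say what separates these times. Array medians were 5.40 and 6.00 in hcatTg and 5.75 and 6.02 in wild type (log2), so the arrays were not on one distribution.

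Mesothelium is the sheet of flat epithelial cells that lines the body cavities and covers the organs in them. Mesothelin is a protein anchored to its outer membrane by a lipid tail. Uroplakins are membrane proteins known from the plaques that stiffen the surface of the bladder lining: uroplakin 1b is a four-pass tetraspanin, and uroplakin 3b is a single-pass protein that pairs with it there. Megalin is a very large endocytic receptor of the low density lipoprotein receptor family, best known for taking up filtered proteins in the kidney tubule.

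To place the opposed pair on the genome, the promoters of Lrp2, higher in hcatTg, and Upk3b, lower in hcatTg, are shown as RefSeq gives them on GRCm38.p6, from 250 bases before to 50 bases after the gene start. Of the 4 genes, these 2 were matched in the promoter table by symbol. The Lrp2 window is chr2:69585980-69586279 on the minus strand and the Upk3b window is chr5:136038246-136038545 on the plus strand. Capitals mark matches to the GC box GGGCGG.
Lrp2: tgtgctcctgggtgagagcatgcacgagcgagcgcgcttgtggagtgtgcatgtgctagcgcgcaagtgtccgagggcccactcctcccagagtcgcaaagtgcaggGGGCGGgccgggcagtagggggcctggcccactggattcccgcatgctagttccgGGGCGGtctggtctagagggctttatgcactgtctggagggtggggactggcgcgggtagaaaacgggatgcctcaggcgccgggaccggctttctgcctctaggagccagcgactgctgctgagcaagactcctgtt
Upk3b: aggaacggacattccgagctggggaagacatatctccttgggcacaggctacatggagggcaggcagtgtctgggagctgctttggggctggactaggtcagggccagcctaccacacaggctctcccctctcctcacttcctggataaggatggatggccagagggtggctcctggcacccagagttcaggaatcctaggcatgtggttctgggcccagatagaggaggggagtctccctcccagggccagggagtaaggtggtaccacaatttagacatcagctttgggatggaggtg

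Both strands were searched for the TATA box TATAAA, the CCAAT box CCAAT and the GC box GGGCGG, motifs that do not overlap one another in these windows. The Lrp2 window held 2 GC boxes, at offsets of -143 and -88 bases from the gene start, and the Upk3b window held none of the 3 motifs. Among 32851 promoter windows of that length, 35.7% held a GC box, 13.6% a TATA box and 37.4% a CCAAT box. The windows also differed in CpG dinucleotides: 20 in Lrp2, more than in 73.5% of windows, and 2 in Upk3b, more than in 14.1%. The median window held 7. These matches describe the letters only.

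Msln, Upk1b and Lrp2 were higher in hcatTg and Upk3b was lower, by similar amounts. On the deposited log2 values Lrp2 was higher by 2.81, Upk1b by 2.76 and Msln by 2.51, while Upk3b differed by -2.68. In linear terms these are 7.03-fold, 6.79-fold and 5.71-fold higher in hcatTg, and 6.41-fold lower for Upk3b. In all 4 genes the arrays of the genotypes did not overlap. The share of all clusters without overlap was not counted, and the table was selected on this contrast, so that separation is description only. Of all 35557 clusters, 0.377% were at least 2-fold higher and 1.18% at least 2-fold lower at both times (0.501% and 0.751% with each array centred on its median, 0.509% and 0.793% after quantile normalization), which is the background of the contrast that chose these genes, and nothing is read from it. The median difference of all clusters was -0.18, and centring each array on its median, which moves it to about 0.00, kept the direction of each of the 4 genes. That shift is small beside their differences and could not have reversed any of them.

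**Figure D1:**
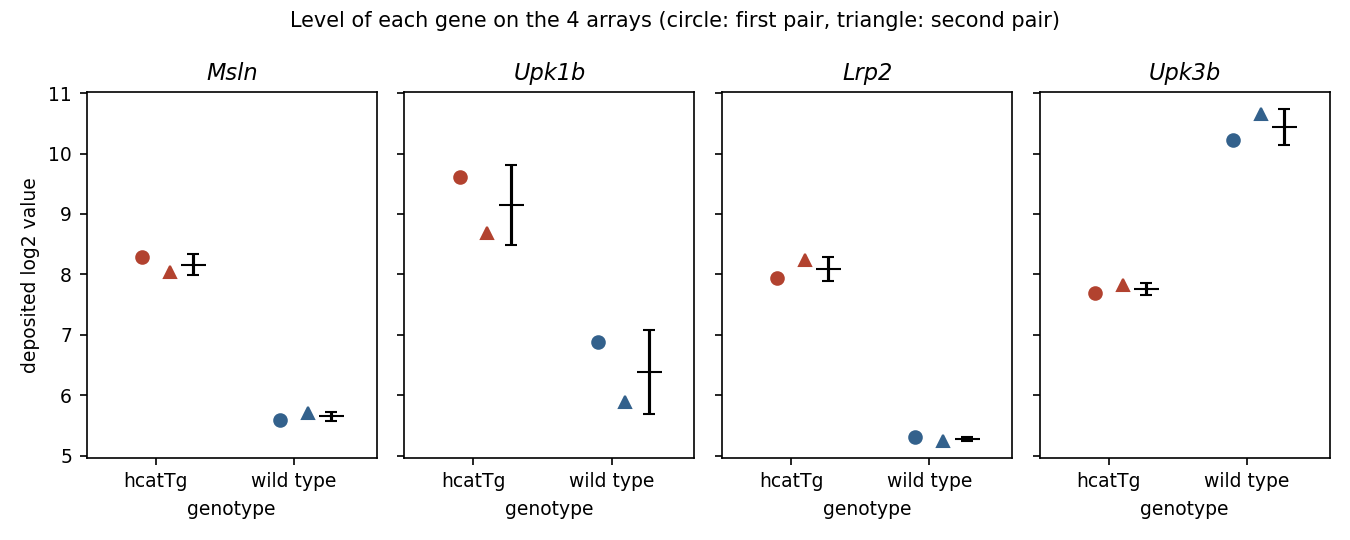
Deposited log2 value of each gene (vertical axis) on the hcatTg and wild type arrays, with circles for the first arrays, triangles for the second arrays, and bars for the mean ± SD (n = 2 arrays per genotype). Msln, Upk1b and Lrp2 sit higher in hcatTg and Upk3b sits lower, with no overlap between genotypes.

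Msln, the mesothelial surface gene that names the group, had values of 8.28 and 8.04 on hcatTg arrays 1 and 2, against 5.59 and 5.70 on wild type arrays 1 and 2. Its mean was 8.16 ± 0.169 in hcatTg and 5.65 ± 0.0792 in wild type (SD, n = 2 each). Both hcatTg arrays were high, and the nearest arrays of the genotypes were 2.34 log2 units apart. The authors' deposited table gives a first fold of 7.81 and a second fold of 5.05, with a first-time signal of 9.22 in hcatTg and 6.26 in wild type. That signal differs from the value table, for a reason the files do not state: the first-time difference of Msln was 2.96 there and 2.69 in the value table.

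Lrp2, the megalin gene, had 7.95 and 8.23 on hcatTg arrays 1 and 2, against 5.30 and 5.25 on wild type arrays 1 and 2. The wild type arrays differed by 0.0526 log2 units and the hcatTg arrays by 0.287, so the spread within a genotype was small beside the difference between genotypes. The mean was 8.09 ± 0.203 in hcatTg and 5.28 ± 0.0372 in wild type (SD, n = 2 each). Its first-array difference was 2.64 and its second-array difference 2.98. In the authors' deposited table its folds were 5.91 and 7.91.

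Upk1b, the tetraspanin uroplakin gene, had 9.62 and 8.68 on hcatTg arrays 1 and 2, against 6.88 and 5.89 on wild type arrays 1 and 2. The first array of each genotype was higher than the second, by 0.935 log2 units in hcatTg and 0.984 in wild type. The mean was therefore the least precise of the 4, at 9.15 ± 0.661 in hcatTg and 6.38 ± 0.696 in wild type (SD, n = 2 each). Within the times the genotypes were nearly equally far apart: 2.74 at the first and 2.79 at the second. The nearest arrays of the genotypes were 1.80 apart, the smallest such gap of the 4 genes.

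Upk3b, the gene for the uroplakin that pairs with uroplakin 1b in plaques, had 7.69 and 7.83 on hcatTg arrays 1 and 2, against 10.23 and 10.65 on wild type arrays 1 and 2. It was the gene of the group whose wild type arrays were high. The mean was 7.76 ± 0.0984 in hcatTg and 10.44 ± 0.301 in wild type (SD, n = 2 each). Its first-array difference was -2.54 and its second-array difference -2.82, and the authors' deposited table gives signed folds of -5.74 and -7.08, where a minus sign stands for wild type over hcatTg. Upk3bl, a related gene, lies next to Upk3b on the chromosome, and whether probes share the pair was not analysed here.

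The opposed directions can be put as an unequal change within an array, which does not depend on how each array was centred. The log2 difference Upk1b minus Upk3b was larger in hcatTg than in wild type by 5.28 in the first arrays and 5.61 in the second. For Msln minus Upk3b the shift was 5.23 and 5.16, and for Lrp2 minus Upk3b it was 5.18 and 5.81. Among the genes that were higher the shifts were smaller. They were -0.05 in the first arrays and -0.45 in the second for Msln minus Upk1b, 0.04 and -0.65 for Msln minus Lrp2, and 0.10 and -0.19 for Upk1b minus Lrp2. Levels of different genes are not compared here, since each has its own probes.

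**Figure D2:**
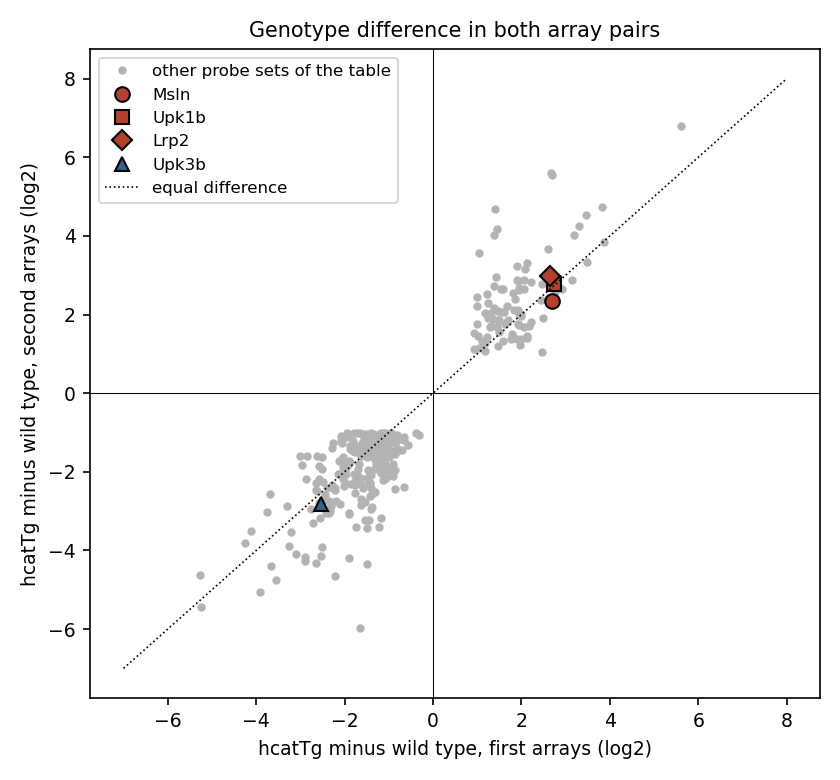
Genotype difference (hcatTg minus wild type, log2) at the first time (horizontal axis) and the second time (vertical axis) for the 398 probe sets of the authors' table, with the 4 surface genes marked and the dotted line at equal difference. Msln, Upk1b and Lrp2 lie together at the upper right and Upk3b lies at the lower left, all close to the line on these deposited values. With arrays centred, Msln and Upk3b differ more between the times.

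In the authors' deposited table, which names 93 probe sets as higher and 305 as lower in hcatTg, the surface genes were not the leading entries. By the size of the authors' average fold, Lrp2 was number 18, Upk1b number 21 and Msln number 24 of the 93, and Upk3b was number 42 of the 305. Their average folds in the authors' table were 6.91 for Lrp2, 6.79 for Upk1b, 6.43 for Msln and -6.41 for Upk3b.

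The difference between the array pairs was not itself used to choose the genes, and it was tested. A gene's own part of the spread in that test is how far its genotype differences at the first and second time disagree. The authors' table was selected on those differences, so the p-values of the 4 genes are not free of that choice. With each array centred on its median and genotype in the fit, Upk1b fell in the second arrays by 1.40 ± 0.162 log2 units (SE, limma, Benjamini-Hochberg adjusted p = 0.0321). It was lower in the second array of both genotypes, at 2.68 against 4.22 in hcatTg and at -0.13 against 1.13 in wild type, as log2 distance from the array median. The other 3 genes did not pass the same test: Msln differed by -0.50 (limma adjusted p = 0.153), Lrp2 by -0.32 (limma adjusted p = 0.167) and Upk3b by -0.16 (limma adjusted p = 0.584). Thus 1 of the 4 passed and it was lower, against 5.79% of all clusters called lower, 11.1% called higher and 16.8% called in either direction. That split moved with the setting: 0.416% were called lower and 27.2% higher on the deposited values, and 24.2% lower and 22.4% higher without the clusters numbered below the first one named in the authors' table. The call for Upk1b was lost after quantile normalization (-1.64, limma adjusted p = 0.0689, where 0 clusters passed and 12588 had an unadjusted p below 0.05) and with no genotype term (limma adjusted p = 0.491). The fit has 1 residual degree of freedom per cluster, so its spread rests largely on that of all clusters, and on simulated data it made more false calls than its nominal share.

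**Figure D3:**
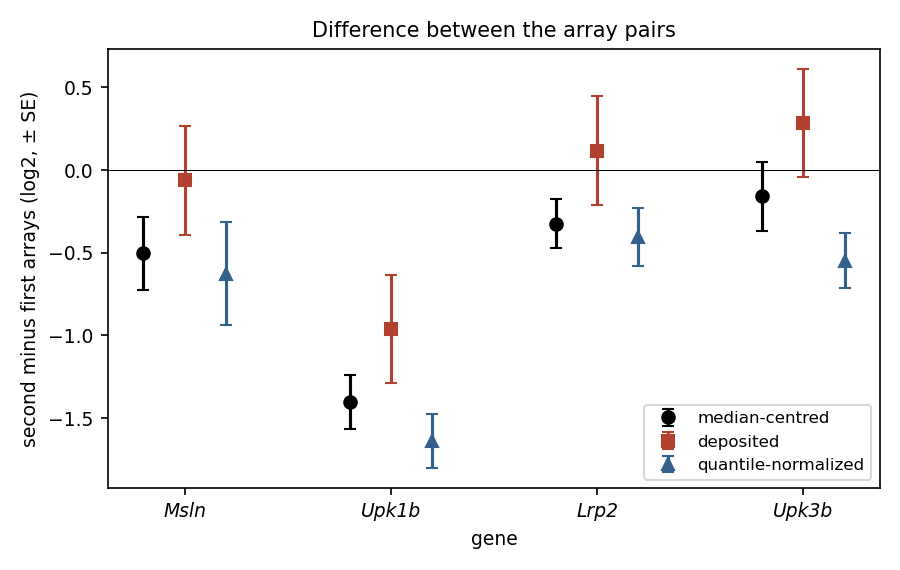
Second minus first arrays (log2, estimate ± SE from limma with genotype in the fit, n = 4 arrays) for each gene, on median-centred, deposited and quantile-normalized values. Upk1b lies below 0 on all of these scales, while Lrp2 and Upk3b change sign between the deposited and the centred values.

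Other mesothelial and epithelial markers in the authors' table also went both ways. Of 26 listed genes 9 appeared there, of which 6 were higher and 3 lower in hcatTg, but 4 of the 9 are the surface genes, which were taken from that table. Without them 5 remain, 3 higher and 2 lower. The table as a whole holds 1.12% of all clusters, 0.262% as higher (93) and 0.858% as lower (305). The table was selected on these arrays, so the counts describe it and are no independent evidence of direction. Genes that the table does not name were not analysed here.

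Among those with higher values, Aldh1a2, a retinoic acid synthesis gene, had 7.36 and 10.39 on hcatTg arrays 1 and 2, against 5.96 and 5.70 on wild type arrays 1 and 2. Its difference was more unequal at the times than those of the surface genes, at 1.41 and 4.70 on the deposited values. Efemp1, a gene for an extracellular matrix glycoprotein, had 10.98 and 11.78 in hcatTg, against 8.80 and 10.08 in wild type. Bnc1, the gene for the epithelial zinc finger protein basonuclin, had 9.44 and 10.18 in hcatTg, against 8.50 and 8.65 in wild type. All of these were separated between genotypes, which the selection of the table on this contrast favours.

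Among those with lower values, Wt1, a transcription factor gene of the embryonic mesothelium, lay at 6.24 and 6.05 in hcatTg, against 7.42 and 7.58 in wild type. Gpm6a, a membrane glycoprotein gene, lay at 4.38 and 5.27 in hcatTg, against 8.30 and 10.34 in wild type. Upk3b was thus accompanied by Wt1 (difference -1.35) and Gpm6a (difference -4.49) on the lower side. The direction of each of the 25 listed genes found in the table, over all lists used here, was kept under median centring and quantile normalization. The table was selected on these differences, and the shift made by centring was small beside them. The kept directions are therefore no independent evidence.

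**Figure D4:**
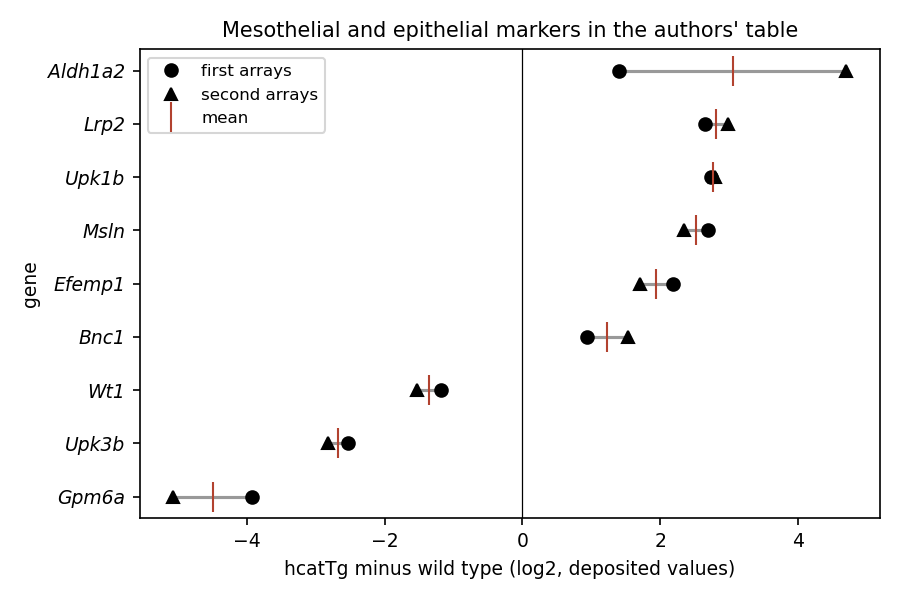
Genotype difference (hcatTg minus wild type, log2 of deposited values, horizontal axis) of the 9 mesothelial and epithelial markers in the authors' table, with circles for the first arrays, triangles for the second and red ticks for the mean. On these deposited values Lrp2, Upk1b, Msln and Upk3b differ little between the times beside Aldh1a2, which spans 1.41 to 4.70. With arrays centred, Msln was at 3.04 and 2.35 and Upk3b at -2.19 and -2.81.

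Genes known to work with the surface proteins were counted in the same table, which holds 1.12% of all clusters. The surface genes among them were taken from that table and count for nothing here. Of 11 uroplakins and tetraspanin partners, Upk1b and Upk3b appeared there, in opposite directions. Of 19 genes of megalin endocytosis (co-receptors, adaptors and ligands), 2 were in the table: Lrp2, higher, and Clu, lower. Clu encodes clusterin, a secreted chaperone that megalin binds, and had 6.67 and 8.54 on hcatTg arrays 1 and 2, against 8.68 and 10.41 on wild type arrays 1 and 2. The genotypes were close at their nearest. On the deposited values the difference was about equal within the times (-2.01 at the first and -1.87 at the second). Of 4 genes on the mesothelin list, which holds its binding partner Muc16, Msln alone was in the table.

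Likeness to the surface genes was measured across the 4 arrays as the root mean square distance between profiles, after centring arrays on their medians and genes on their means, among the probe sets of the authors' table. A small distance says that genes shared their course over these 4 arrays and nothing more. For Msln the 3 nearest other genes were F2rl1, a protease-activated receptor gene, at 0.165 log2 units, Rspo2, a gene for a secreted enhancer of Wnt signalling, at 0.202, and Slc14a1, a urea transporter gene, at 0.256. For Lrp2 they were Slc14a1 at 0.140, Rspo2 at 0.224 and Stc2, a secreted glycoprotein gene, at 0.285. The nearest to Upk1b were farther away, with Rspo2 at 0.329, Slfn3 at 0.490 and F2rl1 at 0.542. For comparison, the median distance to the table was 2.02 for Msln, 2.14 for Lrp2 and 2.29 for Upk1b. Those medians are large by the make-up of the table, as 305 of its 398 probe sets are lower in hcatTg, unlike these genes.

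Rspo2, near to all 3 of the higher genes, had 7.68 and 7.39 on hcatTg arrays 1 and 2, against 4.92 and 4.60 on wild type arrays 1 and 2. Msln and Lrp2 were themselves 0.246 apart, each ranking number 3 among the other's neighbours, while Upk1b was 0.476 from Msln and 0.544 from Lrp2. Upk3b was nearest to Sema3e, a guidance cue gene, at 0.129, Lifr, a cytokine receptor gene, at 0.169 and Mkx, a homeobox gene of tendon, at 0.178. Its median distance to the table was 0.841, as most of the table is lower in hcatTg too. Sema3e had 6.11 and 6.15 on hcatTg arrays 1 and 2, against 8.56 and 8.73 on wild type arrays 1 and 2.

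**Figure D5:**
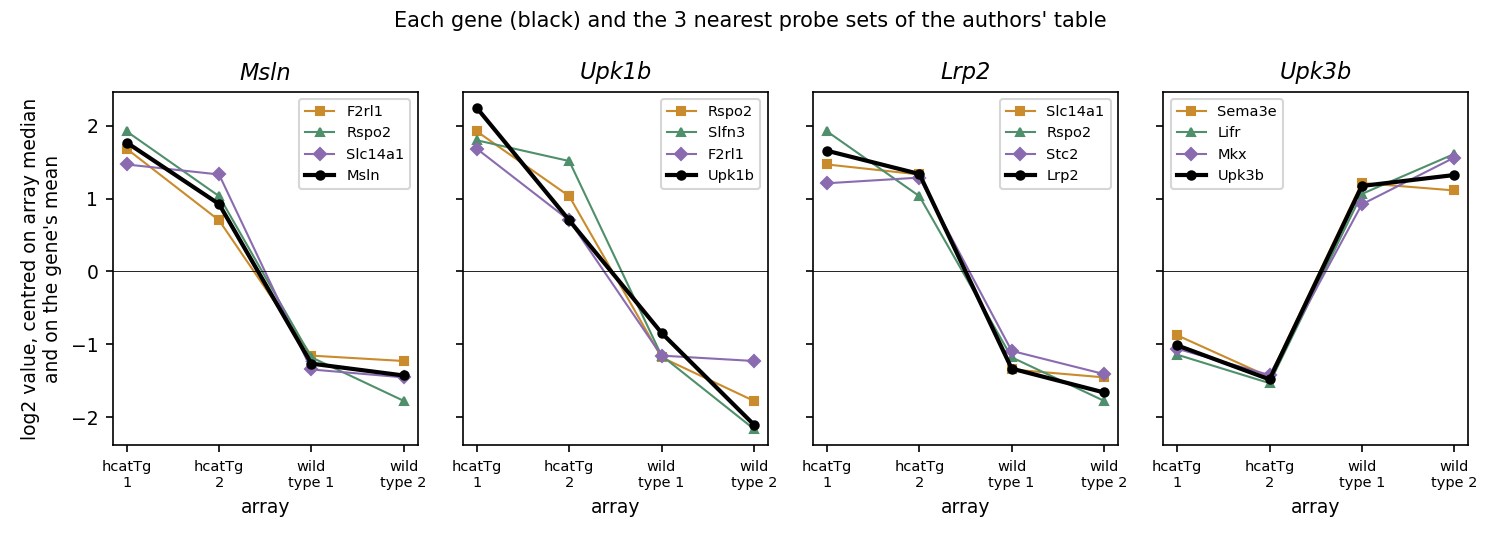
Log2 value centred on the array median and on the gene's mean (vertical axis) over hcatTg arrays 1 and 2 and wild type arrays 1 and 2 for each surface gene (black) and its 3 nearest probe sets of the authors' table (colours). The profiles of Msln, Lrp2 and Upk3b run close to their neighbours, and that of Upk1b steps down between the arrays of each genotype. The 3 neighbours of Upk1b, and Msln and Lrp2, step down too, each by less.

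In gene order on the chromosome, 2 protein-coding neighbours on each side of the surface genes were looked up in the RefSeq table of GRCm38.p6. Of these 16 neighbours 1 was in the authors' table. This was Dhrs9, a short-chain dehydrogenase gene beside Lrp2. It had 7.04 and 7.64 on hcatTg arrays 1 and 2, against 5.22 and 5.54 on wild type arrays 1 and 2, and so was higher in hcatTg like Lrp2, by 1.97. Of the 393 genes of the table that could be placed, 21.4% had at least 1 other gene of the table among those neighbours. That share counts genes and not neighbours. Counted in that way, Lrp2 alone of the 4 surface genes had such a neighbour.

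Markers of other cell types moved along the same comparison, and their part in the differences of the surface genes was not tested. In bulk RNA, fewer cells of a type and less RNA per cell cannot be told apart. Of 16 endothelial markers 2 were in the table: Kdr, a growth factor receptor gene, was at 6.68 and 8.24 in hcatTg, against 5.63 and 4.67 in wild type, and Eng, a co-receptor gene, was at 8.40 and 8.71 in hcatTg, against 9.57 and 10.15 in wild type. On the wild type arrays Kdr lay below the array medians, and other endothelial markers such as Pecam1 and Cdh5 were not analysed here. The summed linear signal of these 2 markers was 440 and 720 in hcatTg, against 808 and 1163 in wild type. That sum follows the brighter Eng probes, which made up 58.1% to 97.8% of it, and says nothing of Kdr, which went the other way.

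Of 13 smooth muscle and mural markers 5 appeared there (0 higher and 5 lower), with summed signals of 397 and 1501 on hcatTg arrays 1 and 2, against 1331 and 4605 on wild type arrays 1 and 2. The sum was lower in hcatTg at both times, and Pdgfrb made up 50.2% to 75.9% of it. All 5 genes were lower at both times, with Pdgfrb overlapping between genotypes across times. The authors' table was selected on this contrast and 305 of its 398 probe sets are lower, so this gives no direction for the list. That table holds 0.262% of all clusters as higher and 0.858% as lower, the background for each of these list counts. Listed markers that it does not name were not analysed. Of 13 fibroblast markers 5 appeared there (2 higher and 3 lower), with sums of 5305 and 13114 in hcatTg, against 1390 and 4289 in wild type. Thbs2 made up 24.0% to 78.7% of that sum and was higher in hcatTg by 3.40, while Col5a1 (-1.21), Fbln1 (-2.15) and Tcf21 (-3.58) were lower, so the sum gives no direction for the list. Of 10 leukocyte markers 3 appeared there (1 higher and 2 lower), with sums of 342 and 668 on hcatTg arrays 1 and 2, against 188 and 422 on wild type arrays 1 and 2, higher at both times. Cd53 made up 20.0% to 92.4% of that sum and was higher in hcatTg by 2.46, while Lyz2 (-1.88) and Lcp1 (-2.33) were lower. The 9 mesothelial and epithelial markers summed to 4522 and 7333 on hcatTg arrays 1 and 2, against 2762 and 4785 on wild type arrays 1 and 2, also higher at both times. The leukocyte and the mesothelial sums both join genes that went in opposite directions, so neither gives a direction for its list. Sex-linked genes separated the genotypes as well: Xist lay at 10.33 and 11.45 in hcatTg, against 4.71 and 4.66 in wild type, and the Y-linked Ddx3y at 3.85 and 4.79 in hcatTg, against 9.09 and 10.24 in wild type. Sex and catalase therefore cannot be told apart as the source of any difference between these genotypes.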

How the data were processed

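The authors deposited log2 values of 35557 transcript clusters on 4 arrays. Per the submitters' processing notes the tool was Affymetrix Expression Console; version and genome build: not given in the sources used here. A further deposited table of the authors, with 398 probe sets, adds, per the file headers, log2 signals of the first arrays made by robust multi-array averaging (RMA), a linear ratio and signed fold changes, whose unit was treated as a score because of their minus signs. Its second folds equal the value table's differences to within 9e-05 (log2), which sets the pairing of arrays. Its probe set identifiers were joined to the value table, and 385 names were matched to RefSeq by accession. Array data have no read depth, the number of arrays limits the precision, and signal over background was not analysed here.

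Genotype differences are means of hcatTg minus wild type on the deposited values. The array pair effect was fitted with limma 3.58.1 (R 4.3.3; lmFit, eBayes) on median-centred values with genotype as a term, adjusted by Benjamini-Hochberg over all clusters, with a threshold of 0.05. The fit was tested on simulated data: the share of false calls was somewhat above nominal with spreads drawn from its variance prior, and well above it with spreads taken from each cluster's own moderated variance. For 2 arrays against 2, the smallest two-sided p of an exact permutation test is 0.333. The p-values reflect only how these samples spread, which may be technical. The genes named are the 4 surface genes, members of 8 marker lists found in the authors' table, the 3 nearest probe sets of each surface gene, and, named after their values were seen, Dhrs9, Xist and Ddx3y. Genes and lists were chosen with earlier results of these data known. Alternatives were median centring, quantile normalization, the authors' table, variance settings, filters on clusters, leaving out each array and the replicate block.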

Additional observations from a re-analysis of the deposited data

How the results depend on the processing

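Each surface gene kept its genotype direction under all 8 alternatives run. The genes were chosen by this difference, and the authors' table, which chose them, is among the alternatives. The kept direction is thus no independent check. Msln, at 2.51 on the deposited values, was 2.70 with median centring, 2.68 with quantile normalization and 2.65 in the authors' deposited table, and Lrp2, at 2.81, was 2.996 and 2.98 with median centring and quantile normalization. These moved by more than 1 SD of the replicates on the deposited values, 0.132 for Msln and 0.146 for Lrp2. On centred values that SD was 0.430 for Msln and 0.229 for Lrp2, and the moves were smaller than it. Median centring shifts every gene by the same amount, so Upk1b (to 2.95) and Upk3b (to -2.50) shifted as far, beside larger SDs on the deposited values. The cause of the other shifts was not tested. Leaving out one array gave 2.39 to 2.63 for Msln, 2.27 to 3.26 for Upk1b, 2.67 to 2.96 for Lrp2 and -2.89 to -2.47 for Upk3b. The replicate block (the pairing of arrays in the authors' table) cannot change the mean differences here. They stayed at 2.51, 2.76, 2.81 and -2.68 for Msln, Upk1b, Lrp2 and Upk3b. Clusters at least 2-fold apart at both times numbered 134 higher and 419 lower, and 178 higher and 267 lower with median centring. With one array left out only one pair remains, and the counts were 389 to 730 higher and 751 to 2294 lower. For second minus first arrays, limma called 5990 clusters on centred values, 9820 on deposited values, 0 after quantile normalization (12588 at an unadjusted p below 0.05), 13485 without clusters numbered below the first named one and 1013 with no genotype term; the cause was not tested beyond the setting changed. There, Msln passed without the lowest-numbered clusters (-0.50, limma adjusted p = 0.0387). Lrp2 reversed to 0.12 and Upk3b to 0.28 on deposited values, where the median of all clusters was 0.40. Without either hcatTg array Upk3b was 0.15, and without either wild type array -0.47. Upk1b ranged from -1.64 to -0.96 over its alternatives, and its limma adjusted p from 7.53e-05 to 0.491.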
